A study of Homo sapiens with 31 samples.

Results

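The comparison was between SFFV/sh-CTRL and EF1a/sh-CTRL in NALM-6 cells 10 and 13 days after lentiviral transduction, that is, between a strong viral and a moderate cellular promoter driving the same control shRNA. NALM-6 is an established human B-cell precursor acute lymphoblastic leukemia line. Samples were chosen by their labelled transduction and time point, which gave 10 of the 31 samples of the series: 4 SFFV/sh-CTRL samples (2 at day 10 and 2 at day 13) and 6 EF1a/sh-CTRL samples (3 at each day). The control shRNA is directed against eGFP, and no sample without a vector was analysed here, so what both vectors do to the cells in common was not measured. The sample labels give the cells as kept in vitro, while the series' own description speaks of cells from mouse bone marrow, and the labels were followed. The cells were sorted for the vector's fluorescent marker before bulk 3′ sequencing with unique molecular identifiers (UMIs), which mark the RNA molecule each read came from. Promoter and vector preparation changed together and cannot be told apart. As separate sets of samples, SFFV/sh-CTRL and EF1a/sh-CTRL at day 4 (3 and 3 samples) and SFFV/sh-XIAP and EF1a/sh-XIAP at days 10 and 13 (6 and 5 samples, with an shRNA against XIAP in place of the control) carried the same pair of promoters. The paper reports a moderate loss of XIAP protein with EF1a/sh-XIAP and a strong one with SFFV/sh-XIAP. In the sh-XIAP samples, promoter and strength of knockdown therefore changed together and cannot be told apart.

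In these vectors the shRNA sits in a miR-30 backbone behind a fluorescent marker, so that 1 RNA polymerase II transcript gives both. Drosha crops such a hairpin in the nucleus, exportin-5 carries it out, Dicer removes the loop and an Argonaute protein uses the remaining strand to silence matching transcripts. A stronger promoter is meant to make more of both, and gene lists for this machinery, for protein folding and for sensing of foreign nucleic acid were therefore examined. The EF1a promoter comes from EEF1A1, which encodes the aminoacyl-tRNA carrier of the ribosome, while SFFV comes from the long terminal repeat of a murine retrovirus and is not shown. Both human elements below were taken from RefSeq (GRCh38.p14), to show the parts of the vector that are of human origin; the sources used here do not state which stretch of EEF1A1 the vector carries. The first is the EEF1A1 start site at chr6:73520983-73521282, minus strand, from 250 bases before to 50 after the start. Capitals mark matches to the TATA motif TATAA and the Sp1-type motif GGGCGG on either strand, the latter read here as CCGCCC. The TATA motif was found at a single place, 28 bases before the start, and is found in 20.4% of 35116 human promoter windows of this length, whereas GGGCGG in either orientation is found in 45.0%. The second is the human MIR30A hairpin at chr6:71403551-71403621, minus strand, with the 19 bases between its mature arms in capitals; in the shRNA cassette the arms are replaced.
EEF1A1 promoter: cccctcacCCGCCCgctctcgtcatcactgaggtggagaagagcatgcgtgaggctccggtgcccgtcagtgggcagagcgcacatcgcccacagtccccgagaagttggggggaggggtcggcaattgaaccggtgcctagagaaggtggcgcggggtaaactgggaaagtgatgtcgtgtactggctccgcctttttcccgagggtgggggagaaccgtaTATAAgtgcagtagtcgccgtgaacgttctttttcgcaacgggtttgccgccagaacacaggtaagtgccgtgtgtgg
MIR30A hairpin: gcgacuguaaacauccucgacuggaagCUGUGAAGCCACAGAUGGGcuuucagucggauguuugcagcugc

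SFFV/sh-CTRL libraries held 444200 and 520334 UMIs at day 10 and 351081 and 484714 at day 13. EF1a/sh-CTRL libraries held 774669, 524479 and 441383 UMIs at day 10 and 603822, 637762 and 553015 at day 13. Values are given as CPM, a gene's UMIs scaled to a common library total. Fewer UMIs in SFFV/sh-CTRL (mean 450100 against 589200) went with fewer genes detected (mean 16200 against 17010), and both differences had an exact two-sided permutation p = 0.0571, or 0.156 after Benjamini-Hochberg adjustment over 7 sample measures. The smallest p that 4 against 6 samples allow is 0.00952. Mitochondrial transcripts took 1.84% ± 0.05 (SD, n = 4) and 1.77% ± 0.04 (n = 6) of the UMIs, and the share of the ribosomal protein genes was 13.5% ± 0.5 and 13.2% ± 0.3 (exact permutation p = 0.0667 and 0.286, adjusted 0.156 and 0.286). SFFV/sh-CTRL day 13 replicate 1, the smallest of the 10 libraries, stood apart on the first principal component (16.0% of the variance), at -61.2 against 4.2 to 9.6 for the other 9. SFFV/sh-CTRL day 10 replicate 1 stood apart on the second (12.4%), at -50.4 against -1.996 to 18.02, so that 2 of the 4 SFFV/sh-CTRL libraries did so. B-cell precursor markers were present in both groups, with the terminal transferase DNTT at 720 CPM ± 38.4 and 747 ± 17.3 and the surrogate light chain VPREB1 at 503 ± 22.4 and 508 ± 43.9.

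Few genes differed between the promoters. Of 17683 genes tested with limma-voom at an adjusted p of at most 0.25, 1 was called (0.00566%), the ribosomal protein gene RPL34, higher with SFFV. At an unadjusted p under 0.05, 911 genes passed (5.15%), 512 of them higher and 399 lower. The edgeR quasi-likelihood test called 5 genes (0.0283%) and had 909 under an unadjusted 0.05, while DESeq2 and limma-trend called 0 and had 417 and 1122 such genes. When the fit was restricted to the 10 samples, limma-voom called 32 of 17490 genes and edgeR 18, of which 17 were shared. By symbol, 10 of these 17 were ribosomal protein genes or their copies, 6 of them copies of RPL34, and 2 were nuclear genes resembling mitochondrial ones. In 73 genes every SFFV/sh-CTRL sample lay above every EF1a/sh-CTRL sample (0.413%) and in 99 genes below (0.56%). Each of these orders is 1 of the 210 ways to split 10 samples into 4 and 6. The median log2 fold change over all tested genes was 0.016. Nothing in the labels says that replicates came from separate transductions, so that p-values measure the spread between these samples, which may be technical.

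The size of difference that could be seen followed abundance. For the 99 genes at a mean of 1000 CPM or more, the 95% interval of the log2 fold change reached 0.08 to either side in the median gene, and for the 688 genes of 200 to 1000 CPM it reached 0.16. For the 3314 genes of 50 to 200 CPM it reached 0.31, and the interval lay within a log2 change of 1 in 3313 of them. Among the 7395 genes under 10 CPM the interval lay within that bound in 2.35%, so that a difference of this size was not detectable in most of them.

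MTATP6P1 and EEF1GP5 were called by edgeR both here and in the sh-XIAP samples, in opposite directions. MTATP6P1 is an unprocessed pseudogene copy of the mitochondrial ATP synthase subunit gene MT-ATP6 in the nuclear genome, at chr1:633696-634376 (plus strand, GRCh38, GENCODE 29). Its level was 1364 and 1301 CPM in SFFV/sh-CTRL at day 10 and 1524 and 1238 at day 13. In EF1a/sh-CTRL it was 1083, 1072 and 1103 CPM at day 10 and 1234, 1184 and 1137 at day 13. All SFFV/sh-CTRL samples thus lay above all EF1a/sh-CTRL samples, although the closest pair, 1238 and 1234 CPM, nearly met. The log2 fold change was 0.24 (SE 0.06), with an adjusted p = 0.623 by limma-voom and 0.135 by edgeR, and in the fit to the 10 samples alone these were 0.0015 and 0.00444. The edgeR call was lost when any of 6 libraries was left out, with the smallest log2 fold change, 0.17 (adjusted p = 0.99), without SFFV/sh-CTRL day 13 replicate 1. The libraries whose omission lost the call were the 3 EF1a/sh-CTRL samples of day 10 (adjusted p = 0.839, 0.73 and 0.702 by edgeR), SFFV/sh-CTRL day 10 replicate 1 (0.363) and both SFFV/sh-CTRL samples of day 13 (0.99 and 0.467). In the sh-XIAP samples, which were separate libraries, MTATP6P1 ran from 1360 to 1771 CPM with SFFV and from 1182 to 1302 CPM with EF1a, again without overlap. The log2 fold change there was 0.24 (SE 0.05, adjusted p = 0.00765 by limma-voom, 0.000318 by edgeR and 0.0278 by DESeq2). At day 4 it was 0.10 (SE 0.04), with an adjusted p = 0.996 by limma-voom.

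MT-ATP6 itself, the mitochondrial gene at positions 8527 to 9207 of the mitochondrial genome, followed the same order. SFFV/sh-CTRL samples had 1598 and 1493 CPM at day 10 and 1760 and 1428 at day 13, and EF1a/sh-CTRL samples 1331, 1234, 1423, 1476, 1408 and 1398 CPM. The ranges overlapped in 1 EF1a sample, and the log2 fold change was 0.18 (SE 0.06, limma-voom adjusted p = 0.923). In the sh-XIAP samples it was 0.23 (SE 0.05, adjusted p = 0.00752 by limma-voom and 0.00107 by edgeR). The transcripts of the gene and the copy are alike: 61.3% of the 31-base stretches of MTATP6P1 also occur in MT-ATP6, so that the counting could have split reads between them. Of 15 mitochondrial transcripts tested, 11 were higher and 4 lower, with a median log2 fold change of 0.05 and 0 called, and the large ribosomal RNA MT-RNR2 was at -0.08 (SE 0.03, limma-voom adjusted p = 0.923). MTRNR2L8 and MTRNR2L10, nuclear genes resembling MT-RNR2, had log2 fold changes of -0.31 (SE 0.09) and -0.49 (SE 0.14) without overlap between the groups. In the sh-XIAP samples these were -0.28 and -0.48, and the groups overlapped. The adjusted p there was 0.15 and 0.0298 by edgeR, both under the threshold. By limma-voom it was 0.325 and 0.201, so that only MTRNR2L10 passed.

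EEF1GP5, a processed pseudogene copy of the elongation factor subunit gene EEF1G at chrX:115702811-115704120 (plus strand), was lower with SFFV. It had 182 and 196 CPM in SFFV/sh-CTRL at day 10 and 162 and 138 at day 13, against 230, 242 and 256 in EF1a/sh-CTRL at day 10 and 222, 243 and 172 at day 13. Only EF1a/sh-CTRL day 13 replicate 3, at 172 CPM, fell among the SFFV samples. The log2 fold change was -0.40 (SE 0.10), with an adjusted p = 0.623 by limma-voom and 0.175 by edgeR. The edgeR call held without EF1a/sh-CTRL day 13 replicate 3 or SFFV/sh-CTRL day 10 replicate 2 (adjusted p = 0.00953 and 0.104) and was lost without any other of the 10 samples, at an adjusted p of 0.296 to 0.953. In the sh-XIAP samples EEF1GP5 had 144 to 202 CPM with SFFV and 203 to 263 with EF1a, without overlap, and a log2 fold change of -0.45 (SE 0.09, adjusted p = 0.00765 by limma-voom, 0.000479 by edgeR and 0.00177 by DESeq2). At day 4 the value was 0.12 (SE 0.11, limma-voom adjusted p = 0.996). EEF1G had 2 UMIs over all 31 samples. It overlaps a readthrough gene in the annotation, and 12.3% of the 31-base stretches of EEF1GP5 occur in it, so that which gene the EEF1GP5 counts stand for is uncertain. For MTATP6P1 and EEF1GP5 the promoter effect did not differ detectably between shRNAs (differences of -0.00 and -0.05 on the log2 scale, SE 0.07 and 0.13, limma-voom adjusted p = 0.998 and 0.995).

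**Figure D1:**
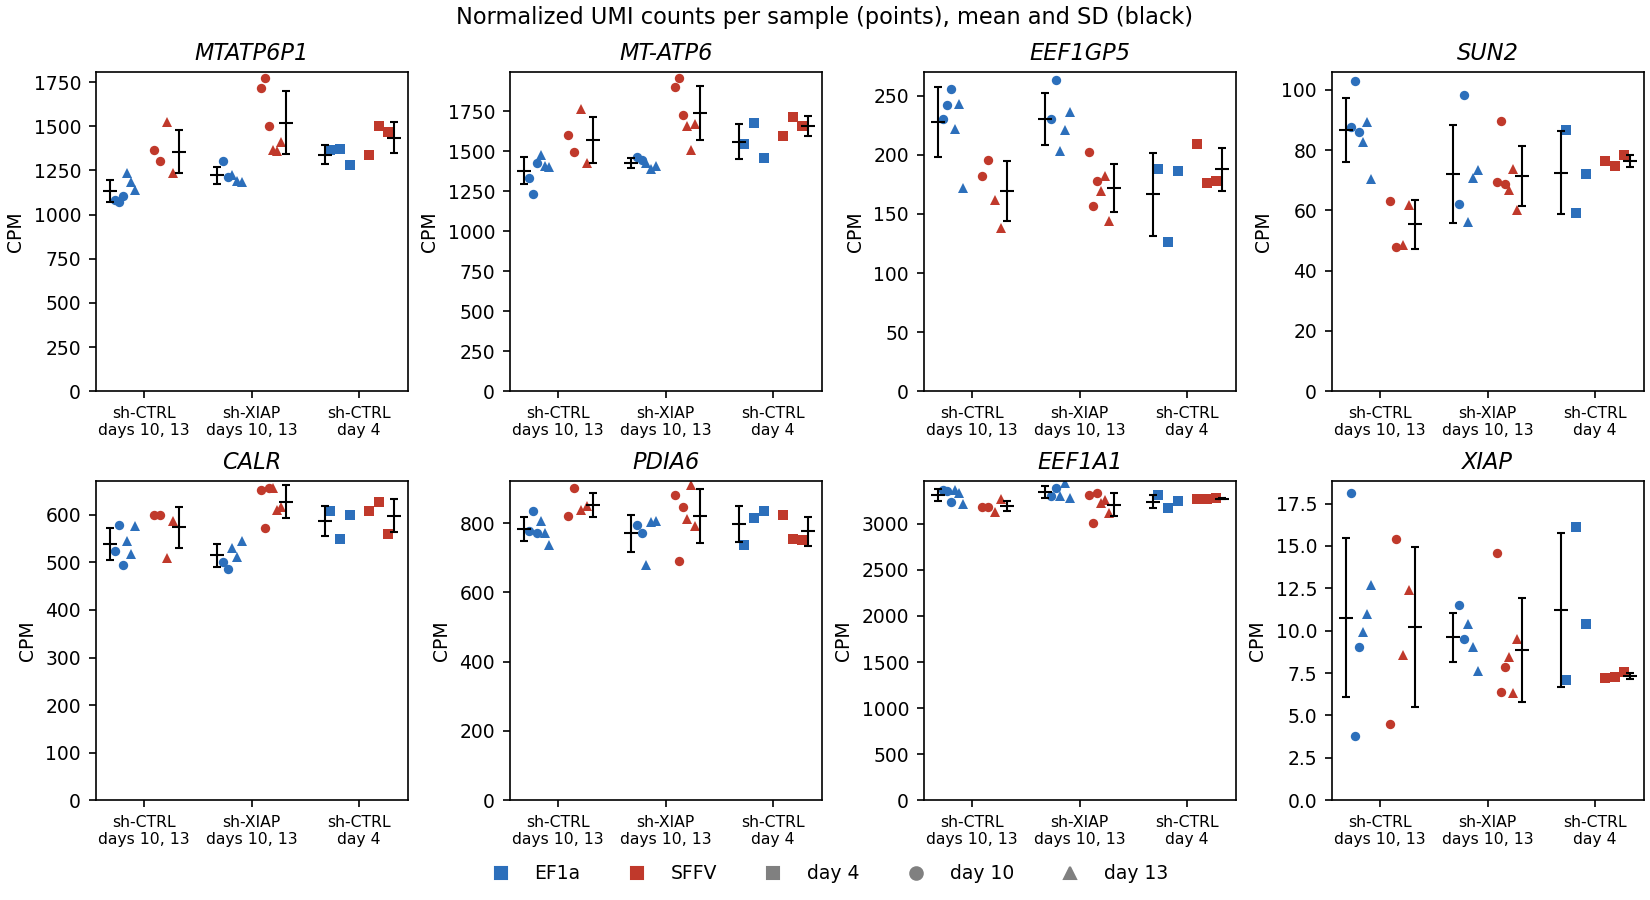
CPM (y axes, from 0) of 8 genes in single samples with EF1a (blue) and SFFV (red) vectors, in sh-CTRL at days 10 and 13, sh-XIAP at days 10 and 13, and sh-CTRL at day 4 (x axes). Black marks are means with SD. MTATP6P1 is higher and EEF1GP5 lower with SFFV in the first 2 sets, with 1 EEF1GP5 sample (172 CPM) among the other group, whereas the SUN2 groups are apart in the first set and overlap in the others, and EEF1A1 and XIAP overlap.

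RPL34, a protein of the large ribosomal subunit, was the most abundant gene and the 1 call of limma-voom. SFFV/sh-CTRL samples had 20786 and 19107 CPM at day 10 and 26655 and 22601 at day 13, and EF1a/sh-CTRL samples 17724, 18903 and 19253 at day 10 and 20319, 20164 and 22676 at day 13. The groups overlapped at both days, and the exact permutation test of the 10 CPM values gave p = 0.162. The fitted log2 fold change was 0.15 (SE 0.01, adjusted p = 1.34e-24), against an adjusted p = 0.669 by edgeR and 0.767 by limma-trend, and in the 10-sample fit 0.569 by limma-voom and 0.0357 by edgeR. The precision weights that limma-voom gave this gene differed 84500000-fold between libraries. The library with the largest, EF1a/sh-XIAP day 13 replicate 1, had 435 times the weight of the next and belongs to neither group compared here. How far these weights set the estimate was not tested. Weights differed by more than 100-fold in 6 of the 17683 genes. The call was lost when any 1 of the 10 samples was left out, and the value turned negative for 7 of them.

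The other 3 calls of edgeR were copies of RPL34. RPL34P6, RPL34P18 and ENSG00000217239 are processed pseudogenes, of which the last lies at chr6:5788346-5788699, minus strand. Their log2 fold changes were 0.31, 0.26 and 0.30 by limma-voom, and their adjusted p by edgeR was 0.135, 0.144 and 0.135. RPL34P18 had 11040 and 9559 CPM in SFFV/sh-CTRL at day 10 and 15991 and 12500 at day 13. In EF1a/sh-CTRL it had 8404, 9255 and 9418 CPM at day 10 and 10521, 10480 and 12719 at day 13. The groups overlapped, and between 9.57% and 28.4% of the 31-base stretches of these copies also occur in RPL34. RPL34 and its copies together took 5.42% ± 1.07 (SD, n = 4) of the UMIs with SFFV and 4.63% ± 0.60 (n = 6) with EF1a (exact permutation p = 0.2, adjusted 0.28). The share was 6.90% in the smallest library, SFFV/sh-CTRL day 13 replicate 1, and 3.96% in the largest of the 10, EF1a/sh-CTRL day 10 replicate 1, but the order did not follow library size throughout. EF1a/sh-CTRL day 10 replicate 3, with 441383 UMIs, had 4.41%, and the larger EF1a/sh-CTRL day 13 replicate 3, with 553015 UMIs, had 5.71%. At day 4, where the small library of 372930 UMIs was an EF1a/sh-CTRL sample, that sample had 7.96%, above the 4.05%, 5.65% and 4.68% of SFFV/sh-CTRL. With the log2 total as a covariate edgeR called 0 genes, with 839 passing an unadjusted 0.05. The log2 fold changes of RPL34P6, RPL34P18 and ENSG00000217239 were then 0.05, 0.04 and 0.05 by edgeR and 0.07, 0.28 and 0.06 by limma-voom, so that for RPL34P18 the tools differed. RPL34P18 was among the genes with extreme limma-voom weights, which differed 388000-fold between libraries in the main fit. Without SFFV/sh-CTRL day 13 replicate 1 edgeR also called 0 (841), and the values were 0.13, 0.12 and 0.13. The promoter effect on RPL34P6 differed between shRNAs by edgeR (-0.52 on the log2 scale in sh-XIAP relative to sh-CTRL, adjusted p = 0.0268), though not by limma-voom (-0.48, SE 0.22, adjusted p = 0.964). Whether library size accounts for these differences was not tested.

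**Figure D2:**
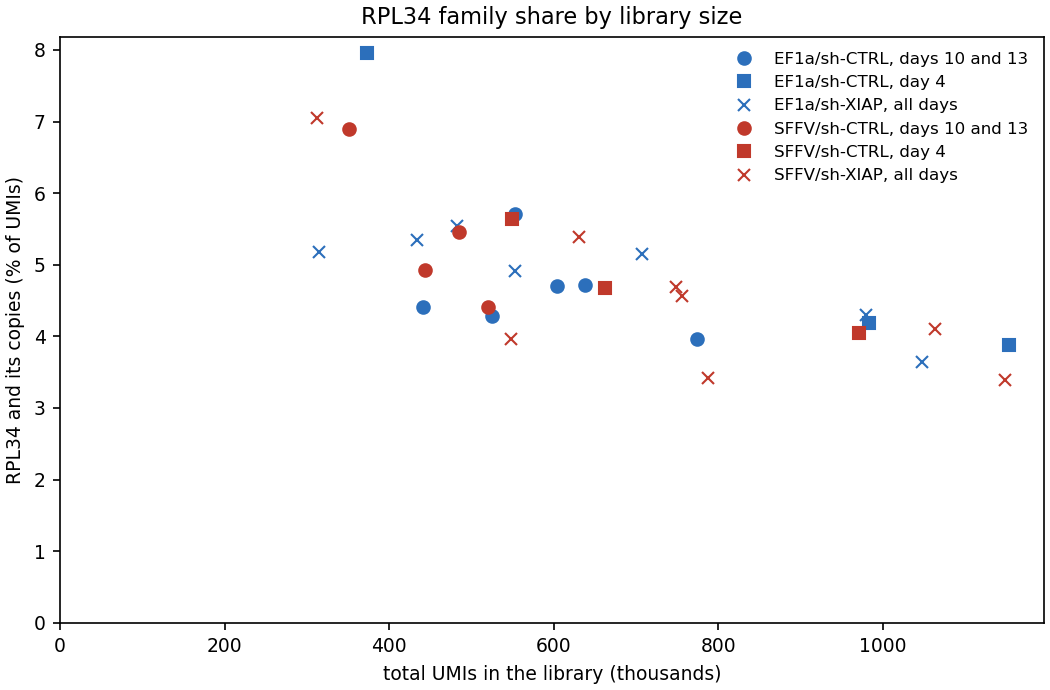
Share of UMIs in RPL34 and its annotated copies (y axis, percent) against the total UMIs of each of the 31 libraries (x axis, in units of 1000), with EF1a vectors in blue and SFFV vectors in red. The 3 highest shares, 6.90% to 7.96%, are in 3 of the 4 smallest libraries, which carry both promoters, and the other of the 4, with 315055 UMIs, has 5.17%.

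Among the genes at a mean of 50 CPM or more without overlap between groups, none passed the limma-voom threshold in the fit over all late samples. SUN2, which links the nuclear envelope to the cytoskeleton, showed the largest decrease. It had 63.0 and 48.0 CPM in SFFV/sh-CTRL at day 10 and 48.4 and 61.9 at day 13, against 87.8, 103, 86.1, 82.8, 89.4 and 70.5 CPM in EF1a/sh-CTRL (log2 fold change -0.63, SE 0.16, limma-voom adjusted p = 0.623). In the 10-sample fit its adjusted p was 0.154 by limma-voom and 0.122 by edgeR, but in the sh-XIAP samples its log2 fold change was -0.05 and at day 4 0.03. MXD3, a repressor of the MYC network, had 207, 234, 225 and 256 CPM with SFFV and 269 to 314 CPM with EF1a (log2 fold change -0.33, SE 0.08, limma-voom adjusted p = 0.624). The 10-sample fit gave MXD3 an adjusted p of 0.154 by limma-voom and 0.127 by edgeR. Its log2 fold change was -0.08 in the sh-XIAP samples, with overlap, and -0.18 at day 4, without overlap. The collagen gene COL5A1 and the copper chaperone gene CCS had log2 fold changes of -0.52 (SE 0.16) and -0.37 (SE 0.11). In the sh-XIAP samples these were -0.49 and -0.33, with an adjusted p of 0.156 and 0.213 by edgeR, under the threshold. By limma-voom the adjusted p there was 0.269 and 0.347, above the threshold. COL5A1 was also lower in every SFFV/sh-XIAP than in every EF1a/sh-XIAP sample (54.8 CPM ± 4.62 and 76.3 ± 10.6), whereas the CCS groups overlapped there. CHAF1A, a subunit of the chromatin assembly factor that loads histones behind replication forks, was at -0.38 (SE 0.12), with -0.07 in the sh-XIAP samples. At day 4 CHAF1A was at -0.42 (SE 0.13, limma-voom adjusted p = 0.996), with 89.1 to 105 CPM for SFFV/sh-CTRL and 125 to 166 for EF1a/sh-CTRL, without overlap. GAPDH, a glycolytic enzyme, had 2449, 2521, 2133 and 2486 CPM with SFFV and 2574 to 2670 with EF1a (-0.09, SE 0.03, limma-voom adjusted p = 0.923), and in the 10-sample fit its adjusted p was 0.00542 by limma-voom and 0.907 by edgeR.

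In the other direction, the spliceosomal isomerase gene PPWD1 had 63.0, 63.4, 76.9 and 61.9 CPM with SFFV and 36.2 to 61.5 with EF1a (log2 fold change 0.49, SE 0.16, limma-voom adjusted p = 0.923). PRPS1, which makes the ribose donor of nucleotide synthesis, was at 0.39 (SE 0.14), RABAC1, a regulator of Rab GTPases, at 0.30 (SE 0.11), and the vesicle traffic GTPase RAB10 at 0.28 (SE 0.11). The midnolin gene MIDN was at 0.31 (SE 0.12) and SMN2, a near-identical copy of SMN1 sharing 93.1% of its 31-base stretches, at 0.42 (SE 0.18). PPWD1, RABAC1 and MIDN had sh-XIAP values of the opposite sign (-0.20, -0.07 and -0.03), and PRPS1, RAB10 and SMN2 had 0.14, 0.15 and 0.18. The pseudogenes EIF4A1P4 and NPM1P24 were at 0.41 (SE 0.15) and 0.24 (SE 0.10), and at 0.43 and 0.31 in the sh-XIAP samples. The adjusted p there was 0.226 and 0.131 by edgeR, but 0.48 and 0.317 by limma-voom, above the threshold. Both pseudogenes share 24.3% of their 31-base stretches with their parent genes. Over all 73 genes higher without overlap, 37 had the same sign in the sh-XIAP samples, and over the 99 lower ones 59 did. Of all 17683 genes tested, 8517 were higher with SFFV in the sh-XIAP samples.

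**Figure D3:**
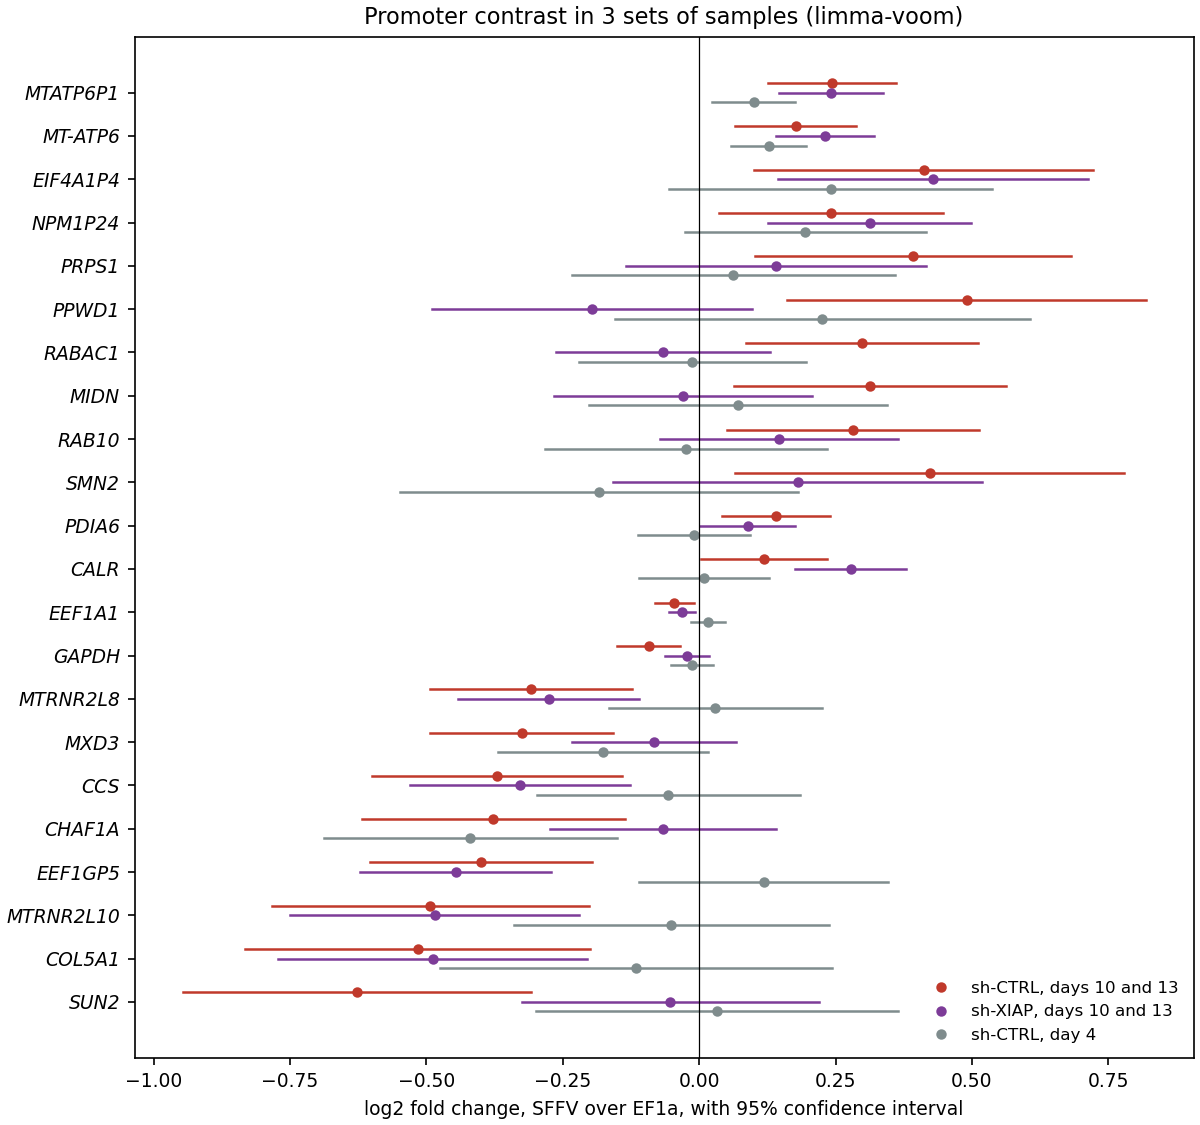
Log2 fold change of SFFV over EF1a vectors with its 95% confidence interval (x axis) for 22 named genes (y axis) in sh-CTRL at days 10 and 13 (red), sh-XIAP at days 10 and 13 (purple) and sh-CTRL at day 4 (grey). The red values of most of these genes took part in their choice; MTATP6P1 and EEF1GP5 have like values in red and purple, whereas SUN2 has -0.63 in red and -0.05 in purple.

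Of the genes tied most closely to the vectors, none was called in the fit over all late samples, and EEF1A1 was called by limma-voom in the 10-sample fit. EEF1A1 had 3183 and 3186 CPM in SFFV/sh-CTRL at day 10 and 3133 and 3270 at day 13, against 3368, 3354, 3240, 3370, 3335 and 3215 CPM in EF1a/sh-CTRL. The groups overlapped, and its log2 fold change was -0.05 (SE 0.02, 95% interval -0.08 to -0.01, limma-voom adjusted p = 0.923). In the 10-sample fit the value was -0.06 with an adjusted p = 0.0939 by limma-voom and 0.99 by edgeR. XIAP, the caspase inhibitor that the other vectors target, had 4.5, 15.4, 8.55 and 12.4 CPM with SFFV/sh-CTRL and 3.81 to 18.1 CPM with EF1a/sh-CTRL, from 19 and 40 UMIs in all. The ratio of the pooled levels was 0.933, with an exact 95% interval of 0.51 to 1.65 that covers counting error only. Its relatives BIRC2 and BIRC3, ubiquitin ligases of the TNF receptor pathway, had 72 and 128 UMIs (log2 fold change 0.16, SE 0.22, limma-voom adjusted p = 0.966) and 1 and 0 UMIs, the latter too few to compare.

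The RNA interference machinery, whose substrate the stronger promoter supplies, gave 0 calls among 25 genes tested and 0 at an unadjusted p under 0.05, where 5.15% of all genes passed. Of these genes 11 were higher and 14 lower, with a median log2 fold change of -0.01. The 4 with the smallest p were TUT4, which adds uridines to miRNA precursors (-0.41, SE 0.21), the RNA editor ADAR (-0.18, SE 0.11), LIN28B, which blocks let-7 maturation (-0.34, SE 0.20), and the splicing and miRNA cofactor KHSRP (-0.23, SE 0.14), each at a limma-voom adjusted p = 0.923. Singled out for their role with the values known, the core factors were DROSHA at -0.06 (SE 0.21), XPO5 at 0.12 (SE 0.17), DICER1 at -0.08 (SE 0.28) and AGO2 at -0.08 (SE 0.22).

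Innate sensing and interferon response genes also gave 0 calls. Of 18 nucleic acid sensors and adaptors tested, 6 were higher and 12 lower, with a median log2 fold change of -0.09, and 2 had an unadjusted p under 0.05, that is 2 of 18 against 5.15% of all genes. TICAM1, the adaptor of Toll-like receptor 3, had 6 UMIs with SFFV and 35 with EF1a (-1.38, SE 0.54), and the DNA sensor IFI16 had 109 CPM ± 24.7 and 134 ± 16.7 (-0.27, SE 0.13), both at a limma-voom adjusted p = 0.923. Also named by the size of p were DHX58, lower at -0.81 (SE 0.47), and RIGI, higher at 0.59 (SE 0.41). Of 39 interferon-stimulated genes, 24 were higher and 15 lower, with a median of 0.06 and a summed level of 1435 CPM ± 45.7 and 1416 ± 49.0. ISG20, an RNA exonuclease, had 6 UMIs and 32 (-1.33, SE 0.57), and HERC5, the ISG15 ligase, 49.9 CPM ± 1.31 and 65.5 ± 9.19 (-0.36, SE 0.16). IFIT5 and PSMB9, named by the same rule, were higher, at 0.50 (SE 0.26) and 0.35 (SE 0.20). Among 28 genes of retroviral restriction and provirus silencing, 16 were higher and 12 lower (median 0.04), and 5 of the 28 had an unadjusted p under 0.05, against 5.15% of all genes: the cytidine deaminase APOBEC3F (0.61, SE 0.25), SMC6 (0.26, SE 0.12) and UHRF1 (0.16, SE 0.07) with higher values, and the DNA methyltransferase DNMT3A (-0.41, SE 0.17) and the histone methyltransferase SETDB1 (-0.46, SE 0.21) with lower values. SETDB1 was named after its value was seen. None reached the adjusted threshold.

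Endoplasmic reticulum chaperones, which fold secreted proteins, had the highest median of the lists with more than 5 genes tested, at 0.09. Of these, 18 of 23 were higher, against 9287 of all 17683 genes, and 0 were called. The summed level of the chaperones was 4561 and 4833 CPM in SFFV/sh-CTRL at day 10 and 4517 and 4627 at day 13, all above the 4341 to 4474 CPM of EF1a/sh-CTRL, a ratio of 1.05. In the sh-XIAP samples the ratio was 1.09 with overlap, and at day 4 the mean sums were 4614 and 4598 CPM. PDIA6, a disulfide isomerase, had 852 CPM ± 35.2 and 782 ± 34.2 (0.14, SE 0.05, limma-voom adjusted p = 0.923), SDF2L1 was at 0.33 (SE 0.15) and HERPUD1, of the degradation pathway, at 0.40 (SE 0.20). The calcium-binding chaperone gene CALR was at 0.12 (SE 0.06, adjusted p = 0.923), with samples of 599, 600, 510 and 588 CPM against 494 to 578. In the sh-XIAP samples CALR had 572 to 657 CPM with SFFV and 486 to 545 with EF1a (0.28, SE 0.05, adjusted p = 0.00356 by limma-voom and 0.00661 by edgeR). Glycolysis enzymes (8001 to 8429 CPM against 8430 to 8560) and cholesterol synthesis genes (2665 to 2715 against 2750 to 2967) were the other 2 of 26 lists whose summed levels did not overlap, both lower with SFFV, and neither separated the promoters in the sh-XIAP samples or at day 4. Their medians over genes were 0.03 and -0.01, so that for glycolysis the median and the summed level differed in sign, with GAPDH and ENO1 (763 CPM ± 26.4 and 830 ± 37.2) among its abundant members. Among single genes, 0.413% were higher and 0.56% lower without overlap, and the list sums were not tested.

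The remaining lists gave no call other than RPL34. Of 33 S-phase genes 22 were lower (median -0.07) and of 30 G2 and mitosis genes 20 (median -0.08), including the mitotic kinase CDK1 (138 CPM ± 10.3 and 168 ± 15.1, -0.27, SE 0.10) and its cyclin CCNB1 (-0.27, SE 0.12), with 0 calls in either list and medians of 0.06 and -0.00 in the sh-XIAP samples. The other 11 and 10 were higher, against 9287 of all 17683 genes, and at day 4 both medians were -0.01. Of 24 MYC and nucleolar growth genes 18 were higher (median 0.06), against 9287 of all 17683 genes, with the ribosome assembly factor NOP56 at 0.20 (SE 0.07). Apoptosis machinery (42 genes, median -0.01), p53 targets (26, -0.04), the ATF4 response (30, 0.00), heat shock proteins (28, 0.03), antioxidant genes (24, -0.02) and proteasome subunits (31, -0.01) gave 0 calls. Translation factors (12, -0.02), respiratory chain subunits (64, -0.02), NF-kB targets (16, 0.07), actin cytoskeleton genes (28, -0.03) and B-cell precursor markers (24, -0.02) gave 0 calls as well, and of the 80 ribosomal protein genes only RPL34 was called, with 39 higher and 41 lower. Markers of other cells were low. Of 16 T and NK cell markers 9 were in the table and 3 passed the low-count filter, and their summed level was 19.2 to 31.5 CPM with SFFV and 12.9 to 20.4 with EF1a, a ratio of 1.57. Their median log2 fold change was 0.96, against 0.016 over all genes, and 2 of the 3 had an unadjusted p under 0.05. TRAC, the T cell receptor alpha constant gene, had 13.5, 13.5, 22.8 and 8.25 CPM with SFFV (25 UMIs) and 3.87 to 9.04 with EF1a (21 UMIs), a log2 fold change of 1.13 (SE 0.40, limma-voom adjusted p = 0.923, exact permutation p = 0.019). TRAC was named for the smallest p of its list, so that this permutation p comes from the values that chose it. It was also higher without overlap at day 4 (12.5 CPM ± 3.10 and 7.05 ± 1.65), where the smallest permutation p possible is 0.1. In the sh-XIAP samples the TRAC groups overlapped, at 8.46 to 16.0 CPM and 2.07 to 14.3 (0.44, SE 0.39, limma-voom adjusted p = 0.954). In sh-CTRL at days 10 and 13 NCAM1 went the other way, at -1.53 (SE 0.64), from 2 and 16 UMIs. The part of these markers in the other results was not tested. Myeloid and erythroid markers ran from 13.5 to 19.2 and 11.4 to 23.5 CPM and stromal markers from 1.92 to 12.4 and 4.97 to 14.5 CPM.

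The promoter effect did not differ detectably between days. The day 13 effect minus the day 10 effect gave 0 calls (0%) with limma-voom, edgeR, DESeq2 and limma-trend, and 917, 911, 246 and 1144 genes at an unadjusted p under 0.05. At day 4, limma-voom called 3 of 18336 genes (0.0164%), named here after their values were seen: RPL11 (0.09, SE 0.02), RPL29 (0.12, SE 0.02) and ENSG00000226396 (-0.38, SE 0.08), while edgeR, DESeq2 and limma-trend called 0, with 745, 74 and 894 genes passing an unadjusted 0.05. In the sh-XIAP samples 71 genes (0.402%) were called, 46 higher and 25 lower with SFFV, and 88 by edgeR. XIAP, the target of that shRNA, had 8.86 CPM ± 3.06 with SFFV/sh-XIAP and 9.62 ± 1.45 with EF1a/sh-XIAP, from 39 and 26 UMIs. The pooled ratio was 0.946 (exact 95% interval 0.561 to 1.62), so these counts showed no graded loss of XIAP RNA between the promoters. In sh-CTRL the levels were 10.2 ± 4.72 and 10.8 ± 4.67, and they were not tested against sh-XIAP. The paper graded the knockdown as moderate or strong on protein, by Western blot, which was not measured here. The test of the difference between the promoter effects in sh-XIAP and in sh-CTRL called 1 gene with limma-voom, RPL34, and 23 with edgeR. It called 1 with limma-trend and 0 with DESeq2 (382 genes at an unadjusted p under 0.05).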

How the data were processed

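RNA of sorted NALM-6 cells was sequenced by the authors with prime-seq, a bulk form of SCRB-seq. They deposited UMI counts, whole numbers without normalization, for 30667 Ensembl genes and 31 samples. Per the submitters' processing notes, STAR 2.6.0a and the builds hg38 (GRCh38) and mm10 (GRCm38) were used, while the sources used here name neither UMI tool nor annotation. The authors excluded outlying samples without naming them, so whether any is among the 31 is not known, and none of the 31 was left out here.

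Gene names and positions came from GENCODE 29 (GRCh38), which holds 29928 of the identifiers. Genes above 1 CPM in at least 1/3 of the 21 samples of days 10 and 13 were kept (17683), TMM-normalized and fitted with limma-voom (limma 3.58.1, edgeR 4.0.16, R 4.3.3) on construct and day, with Benjamini-Hochberg adjustment at 0.25. The day 4 samples were fitted apart. DESeq2 1.42.0, edgeR's quasi-likelihood test and limma-trend (prior count 2) were alternatives. The scripts were tested on simulated data. Single values were compared by exact two-sided permutation tests (scipy). The interval of a pooled ratio is exact and holds counting error alone.

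The members and gene lists were chosen with earlier results of these data known. Named were XIAP, BIRC2, BIRC3 and EEF1A1, up to 12 genes a direction called by limma-voom and up to 5 by edgeR with 1 sign at both days, up to 8 a direction of smallest p among genes of at least 50 CPM without overlap, 2 or 4 a list of smallest p (up to 4 were allowed), and up to 3 a direction called for day dependence.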

Additional observations from a re-analysis of the deposited data

Results flagged for a closer look

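In groups of 4 to 10 samples, the distance of the highest or lowest sample from its neighbour was set against Dixon's limit. Of 188 sets of values 12 passed it, and chance alone flags about 1 in 20. The first was SFFV/sh-CTRL day 13 replicate 1 at -61.2 on the first principal component. In SFFV/sh-CTRL single samples also stood apart for PPWD1 (76.9 CPM, day 13 replicate 1), CALR (510.0 CPM, day 13 replicate 1), PRPS1 (124.0 CPM, day 13 replicate 2), NPM1P24 (161.0 CPM, day 13 replicate 2) and MIDN (133.0 CPM, day 10 replicate 1). PSMD7, a proteasome subunit, had 254.0 CPM in day 10 replicate 2, and BIRC3 (1.92 CPM, day 10 replicate 2) and NCAM1 (4.5 CPM, day 10 replicate 1) were seen in 1 SFFV/sh-CTRL sample each. In EF1a/sh-CTRL, day 13 replicate 3 stood apart for ENSG00000217239 (4304.0 CPM), RPL34P6 (2072.0 CPM) and the respiratory chain subunit gene NDUFB2 (335.0 CPM).

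The promoter effect on RPL34 differed between shRNAs by limma-voom (-0.35 on the log2 scale in sh-XIAP relative to sh-CTRL, adjusted p = 1.63e-10), with the precision weights described for this gene.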

How the results depend on the processing

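SFFV/sh-CTRL against EF1a/sh-CTRL gave 1 call. It gave 5 by edgeR or with no filter on low counts, 32 with only the 10 samples (18 by edgeR) and 3 at day 10 alone. It gave 0 by DESeq2 or limma-trend, without TMM, with filterByExpr, with counts thinned to 351081 UMIs, at day 13 alone, with no day term, among protein-coding genes only, and by edgeR with the log2 total as a covariate. Leaving out 1 sample gave 0 by limma-voom each time and 0 to 26 by edgeR: 0 without any EF1a/sh-CTRL sample of day 10 or either SFFV/sh-CTRL sample of day 13, 4 without EF1a/sh-CTRL day 13 replicate 1 or 2, 17 without replicate 3, and 2 and 26 without SFFV/sh-CTRL day 10 replicates 1 and 2. The edgeR repeats, its covariate and 10-sample fits and the merging of pseudogenes with parents were chosen after seeing the data. Day dependence gave 0 calls and 1 in the 10-sample fit. Day 4 gave 3, but 0 by edgeR, DESeq2 and limma-trend and 0 to 10 with 1 sample left out. The sh-XIAP samples gave 71, but 26 by DESeq2 and 43 by limma-trend.

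Correlations between the deviations of same-numbered samples were -0.00537 to 0.00691. With 2 SFFV/sh-CTRL samples a day, each value has a mirror image of opposite sign, so that these correlations cannot decide on pairing. The numbers were not read as pairs in the main fit, since the paper's methods name no replicate block. With the replicate block the counts were 0 for the late comparison, 50 for sh-XIAP, 3 at day 4 and 0 for day dependence.

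Log2 fold changes turned sign for XIAP with 1 sample left out (-0.322 to 0.28, and 0.149 and 0.17 by edgeR without EF1a/sh-CTRL or SFFV/sh-CTRL day 10 replicate 1), and for BIRC2 at day 13 alone (-0.235) and with 1 sample left out (-0.00304 to 0.294). They also did for RPL34 with 1 sample left out (-0.054 to 0.162), TMSB4X at day 13 alone (-0.0303) and CD14 by edgeR (-0.018, -0.278 and -0.167 without EF1a/sh-CTRL day 10 replicate 1 and SFFV/sh-CTRL day 13 replicates 1 and 2). The cause was not tested. Depth limits genes under 10 CPM, where 2.35% had an interval within a log2 change of 1.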
